A study of Mus musculus with 4 samples.

Results

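The dystrophin glycoprotein complex is represented here by 9 genes: Dmd, Utrn, Dag1, Sgca, Sgcb, Sgcd, Dtna, Sntb1 and Lama2. They were taken by gene symbol from a table of 48432 gene rows, and all 9 were found once, with an estimate in both groups. The cells were cardiomyocytes, which contract the heart, released from mouse hearts by enzyme perfusion through the coronary vessels. The control group consisted of 2 libraries from mice with the genotype label MHC, and the Rbfox2 OE group of 2 libraries from mice with the genotype label RbFox2. RBFOX2 is an RNA-binding regulator of alternative splicing, and the series title names its non-muscle isoform as the one overexpressed. Both groups were of the C57BL x FVB strain and had received doxycycline in the diet for 3 days. The labels give neither the age of the animals, nor what drives the transgene, nor what the MHC animals carry, nor how many animals stand behind a library.

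The complex links the cytoskeleton of a muscle cell to the basement membrane around it. Laminin outside the cell binds dystroglycan, dystroglycan spans the membrane beside the sarcoglycans, and dystrophin joins dystroglycan to cortical actin while dystrobrevins and syntrophins attach to dystrophin as adaptors. Loss of dystrophin, of a sarcoglycan or of the laminin alpha 2 chain causes muscular dystrophy, and dystrophin and sarcoglycan defects also cause cardiomyopathy.

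Values are FPKM, fragments scaled by transcript length and by a measure of library size, so levels can be set against each other across genes. How the libraries were scaled against each other is not given in the sources used here. For each gene the table gives 1 pooled value in each group, with bounds of unstated level that are printed in brackets after it, and no value per library. The spread between libraries of a group is therefore unknown, no test between the groups was possible, and the depth is unknown. Differences are given as the log2 ratio of Rbfox2 OE over control after adding a pseudocount of 1 FPKM, which understates the difference of low genes. A bracketed range after a log2 ratio runs between the most distant pairings of the authors' bounds. The overexpressed gene itself stood at 14.7 FPKM in control cells and 293 FPKM in Rbfox2 OE cells, in the direction of the labels.

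On the deposited scale 8 of the 9 genes were lower in Rbfox2 OE and 1, Sntb1, was higher; 7 were lower with the median of all genes at 0 or after rescaling without mitochondrial genes and the 10 most abundant genes, where Dag1 turned, and 5 with the median cardiomyocyte marker at 0, where Utrn and Sgcd turned as well. The median log2 ratio of the 9 was -0.85. Among the 11697 genes whose mean level reached 1 FPKM, 53.8% were lower and the median was -0.06. The authors' bounds were separate between the groups for 2 of the 9 genes, Sgca and Sgcb, both lower in Rbfox2 OE. Over all genes compared the bounds were separate for 16.0%, with 9.33% lower and 6.67% higher. Of the 9 genes 3 were at least 2-fold lower, Sgca, Dmd and Lama2, and 0 were at least 2-fold higher. Lama2 lost this call at a pseudocount of 5 FPKM, with a log2 ratio of -0.98, which left 2 of the 9. Over all genes compared 17.0% differed at least 2-fold, with 10% lower and 6.97% higher. The rescaling without mitochondrial and top genes turned these splits, to 823 genes lower and 1020 higher with separate bounds and to 913 lower and 1060 higher at 2-fold. The log2 ratios of 6 of the 9 genes lay within the lowest 15% of all genes compared, with Sgcd just inside at 14.6%. Those of Sgca, Dmd and Lama2 lay within the lowest 10%, though the bounds of Lama2 exclude neither direction. Beside the 9 genes, the 13 cardiomyocyte markers with an estimate had a median log2 ratio of -0.87, with a range from -2.42 to 0.60. Markers of fibroblasts, endothelial cells and macrophages were higher in Rbfox2 OE. In these bulk samples fewer cells of a type and less RNA per cell cannot be told apart.

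**Figure D1:**
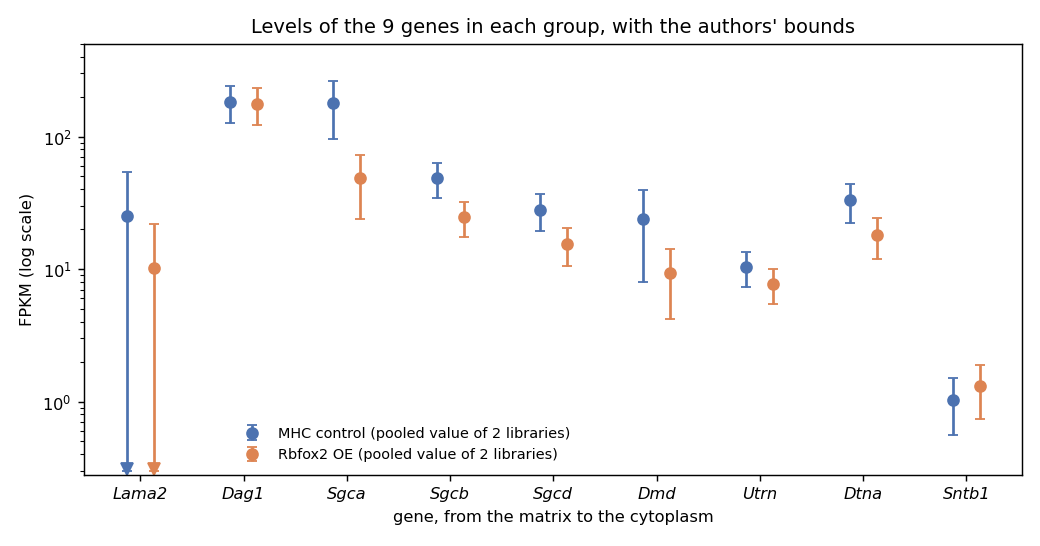
FPKM on a log axis for each of the 9 genes, ordered from the matrix to the cytoplasm, in the control (blue) and in Rbfox2 OE (orange). Points are the authors' pooled values of 2 libraries and bars their bounds; arrows mark a lower bound of 0. The bars of Sgca and Sgcb do not overlap between the groups, while those of Dag1 nearly coincide.

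On the outside of the cell, Lama2 encodes the alpha 2 chain of laminin, the main laminin chain of the muscle basement membrane. Lama2 (chromosome 10, 26980036 to 27619758, minus strand, GRCm38) stood at 25.1 FPKM in control cells (0 to 53.7) and at 10.3 FPKM in Rbfox2 OE cells (0 to 21.8). The log2 ratio was -1.21 (-5.77 to 4.51), so its bounds exclude neither direction. The half-width of the control bounds was 107% of the value, wider than in 93.5% of all genes compared, which makes Lama2 the least certain of the 9. The annotation gives Lama2 8 transcripts, 3 of them protein-coding with lengths from 3383 to 9614 bases, and 6 other genes overlap it, 5 on the opposite strand.

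The laminin alpha 4 chain, a chain of vascular basement membranes, was higher. Lama4 stood at 10.7 FPKM in control cells (7.30 to 14.0) and at 15.4 FPKM in Rbfox2 OE cells (10.7 to 20.0), with overlapping bounds. The level of Lama2 was thus 2.35 times that of Lama4 in the control and 0.669 times in Rbfox2 OE, and the bounds of Lama2 that reach 0 leave both quotients without a lower limit above 0. Of the 10 other laminin chain genes, 7 reached a mean of 1 FPKM, of which 5 were lower and 2 higher. Lama5, the alpha 5 chain, was the 1 chain with separate bounds, at 16.6 FPKM (10.7 to 22.6) against 5.29 FPKM (3.58 to 7.01). Its log2 ratio was -1.49.

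Dag1 encodes dystroglycan, the receptor for laminin, whose precursor is cut into an outer alpha and a membrane-spanning beta subunit. Dag1 (chromosome 9, 108204634 to 108263958, minus strand) had the highest level of the 9 genes in both groups, at 184 FPKM in control cells (127 to 240) and 177 FPKM in Rbfox2 OE cells (121 to 232). The groups overlapped over nearly the whole range of the bounds. The log2 ratio was -0.06 (-0.98 to 0.86), equal to the median of all genes at this precision, and 50.3% of genes had a lower one. Its sign is not fixed, since rescaling the groups without mitochondrial genes and the 10 most abundant genes gave 0.10. Dag1 overlaps no other annotated gene.

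Dystroglycan binds laminin only once its alpha subunit carries a particular O-mannosyl glycan, which a chain of enzymes builds. All 17 genes of this glycosylation pathway that were looked up reached a mean of 1 FPKM, and 13 were lower and 4 higher, with a median log2 ratio of -0.39.

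The sarcoglycans are single-pass membrane proteins that assemble as a unit beside dystroglycan, with a makeup that differs between striated muscle and other tissues. Sgca, the alpha form, is largely restricted to striated muscle. Sgca (chromosome 11, 94962791 to 94976327, minus strand) stood at 178 FPKM in control cells (95.1 to 261) and at 48.3 FPKM in Rbfox2 OE cells (23.9 to 72.6). The bounds of the groups were 22.4 FPKM apart. The control was 3.69-fold higher, the log2 ratio was -1.86 (-3.39 to -0.38), and 1.59% of all genes compared had a lower one. On the opposite strand Hils1 overlaps Sgca. The libraries were made with a stranded kit, but use of strand in the counting is not given in the sources used here.

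Sgcb, the beta form, forms the core of the sarcoglycan unit with the delta form. Sgcb (chromosome 5, 73632749 to 73647790, minus strand) stood at 48.8 FPKM in control cells (34.7 to 62.9) and at 24.6 FPKM in Rbfox2 OE cells (17.3 to 31.9), a ratio of 0.504. The log2 ratio was -0.96 (-1.80 to -0.12). The bounds were separate by 2.803 FPKM, and this gap closed when Rbfox2 OE was rescaled without mitochondrial and top genes, a factor of 1.11. Sgcd, the delta form, lies on chromosome 11 (46896253 to 47988969, minus strand). It stood at 28.03 FPKM (19.4 to 36.6) against 15.5 FPKM (10.6 to 20.3), a log2 ratio of -0.82 (-1.70 to 0.06). Its control lower bound lay just under the Rbfox2 OE upper bound, so the groups overlapped narrowly.

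Sgce, the epsilon form, is not among the 9 and replaces the alpha form in many other cell types. It was higher in Rbfox2 OE, at 5.10 FPKM (3.24 to 6.97) against 8.29 FPKM (5.47 to 11.1). The bounds of Sgce overlapped. Sgcz, the zeta form, was listed at 0 in both groups. The level of Sgca was 34.9 times that of Sgce in the control (13.6 to 80.7 by the bounds). In Rbfox2 OE it was 5.82 times that of Sgce (2.15 to 13.3). These intervals did not overlap but came close, at 13.3 and 13.6. Against Dag1, Sgca stood at 0.970 of its level in the control (0.396 to 2.05) and at 0.273 in Rbfox2 OE (0.103 to 0.599), and these intervals overlap. Quotients within a group do not depend on how the groups were scaled.

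Sspn, sarcospan, a tetraspanin-like protein that binds the sarcoglycans, differed more than any of the 9 genes. Sspn stood at 57.1 FPKM in control cells (40.8 to 73.3) and at 7.13 FPKM in Rbfox2 OE cells (4.83 to 9.43). The bounds were far apart, and the log2 ratio was -2.84 (-3.67 to -2.003). Sspnos, an antisense gene, overlaps Sspn, so the genes cannot be told apart if strand was not used in counting.

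The sequence before the transcription start is shown for the pair of members with separate bounds, Sgca and Sgcb, and for Dag1, the gene with nearly the same level in both groups. Each window is the 250 bases before the RefSeq start on the sense strand, 5′ to 3′ (GRCm38.p6, all minus strand), with matches to the E-box CANNTG, the site class of myogenic bHLH factors, in capitals. The windows are chr11:94976328-94976577 for Sgca, chr5:73647738-73647987 for Sgcb, printed from 73647791 on because 53 bases lie inside the GENCODE gene, and chr9:108263959-108264208 for the first of the 2 Dag1 starts.
Sgca: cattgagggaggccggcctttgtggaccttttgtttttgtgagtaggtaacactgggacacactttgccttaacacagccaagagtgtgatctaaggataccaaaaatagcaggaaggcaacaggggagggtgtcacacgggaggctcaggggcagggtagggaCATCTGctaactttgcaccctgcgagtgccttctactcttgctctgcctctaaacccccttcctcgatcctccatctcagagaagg
Sgcb: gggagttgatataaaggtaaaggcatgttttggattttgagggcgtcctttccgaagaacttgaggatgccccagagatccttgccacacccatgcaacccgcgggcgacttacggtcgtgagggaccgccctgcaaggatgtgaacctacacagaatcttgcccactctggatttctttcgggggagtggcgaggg
Dag1: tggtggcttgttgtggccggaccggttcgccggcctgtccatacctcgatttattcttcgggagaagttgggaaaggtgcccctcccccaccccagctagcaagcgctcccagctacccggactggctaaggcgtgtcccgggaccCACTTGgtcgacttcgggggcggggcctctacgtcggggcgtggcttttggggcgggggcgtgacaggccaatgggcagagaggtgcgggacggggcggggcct
The Sgca window holds 1 match to CANNTG, the Sgcb window 0 and the Dag1 window 1. CANNTG reads the same on both strands and occurs in 66.2% of the 32851 such windows in the table. A match to TATAAA on either strand occurs in 12.4% of all windows and was found for Sgcb but not for Sgca or Dag1. Guanine and cytosine made up 52.8% of the Sgca window, 58.4% of the Sgcb window and 67.6% of the Dag1 window, against a median of 52.4%. RefSeq windows were matched for 7 of the 9 genes. These matches describe the letters only, and the files hold no measurement at these sequences.

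Dystrophin, the product of Dmd, is the rod-shaped protein that ties actin to dystroglycan. Dmd (chromosome X, 82948870 to 85206141, plus strand) stood at 23.9 FPKM in control cells (8.02 to 39.8) and at 9.26 FPKM in Rbfox2 OE cells (4.23 to 14.3). The control value was 2.58-fold higher and lay above the Rbfox2 OE upper bound, but the bounds of the groups overlapped. The log2 ratio was -1.28 (-2.96 to 0.76), and 5.78% of genes had a lower one. The half-width of the control bounds was 66.5% of the value, wider than in 84.7% of genes. The annotation gives Dmd 14 transcripts, of which 3 are protein-coding with lengths of 1858 to 14910 bases. A gene's FPKM sums isoforms of such unequal length, so it depends on how fragments were assigned among them, and the gene-level value does not separate full-length dystrophin from its short forms.

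Utrophin, the product of Utrn, is the paralogue of dystrophin that fills the same place in the complex in fetal muscle and in many non-muscle cells. Utrn (chromosome 10, 12382188 to 12869365, minus strand) stood at 10.4 FPKM in control cells (7.35 to 13.4) and 7.69 FPKM in Rbfox2 OE cells (5.42 to 9.97). The log2 ratio was -0.39 (-1.16 to 0.39), with overlapping bounds. The Utrn level was 0.433 times that of Dmd in the control (0.185 to 1.67 by the bounds) and 0.831 times in Rbfox2 OE (0.379 to 2.35), and these intervals overlap. Dag1 stood at 7.67 times the level of Dmd in the control (3.19 to 29.9) and at 19.1 times in Rbfox2 OE (8.49 to 54.8). These intervals overlap as well.

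Dtna encodes alpha-dystrobrevin, a relative of dystrophin that binds it directly and carries syntrophins. Dtna (chromosome 18, 23415135 to 23659715, plus strand) stood at 33.1 FPKM in control cells (22.4 to 43.8) and 18.0 FPKM in Rbfox2 OE cells (11.8 to 24.1). The log2 ratio was -0.85 (-1.81 to 0.10), with a narrow overlap of the bounds, and Gm47898 overlaps Dtna on the opposite strand. Sntb1 encodes beta-1-syntrophin, an adaptor that brings signalling proteins and channels to the complex. Sntb1 (chromosome 15, 55636388 to 55906949, minus strand) had the lowest level of the 9 genes, at 1.04 FPKM in control cells (0.559 to 1.51) and 1.31 FPKM in Rbfox2 OE cells (0.736 to 1.88). It was the 1 gene of the 9 that was higher, by a log2 ratio of 0.18 (-0.53 to 0.89), and the groups overlapped.

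Sntb2, beta-2-syntrophin, was the 1 higher gene among the partners, at 1.70 FPKM (1.08 to 2.31) against 3.43 FPKM (2.30 to 4.56). Its bounds overlapped narrowly. Of 12 other syntrophins, dystrobrevins and cytoplasmic partners, 8 reached a mean of 1 FPKM, 7 of them lower and 1 higher, with a median of -0.57. Pgm5, a phosphoglucomutase relative without known enzyme activity that binds dystrophin and utrophin, stood at 62.5 FPKM (44.4 to 80.5) against 20.5 FPKM (14.4 to 26.7). Its bounds were separate and its log2 ratio was -1.56. Nos1, the neuronal nitric oxide synthase that syntrophin anchors in skeletal muscle, was near 0, at 0.0202 FPKM in control cells and 0.0166 FPKM in Rbfox2 OE cells, with lower bounds of 0.

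**Figure D2:**
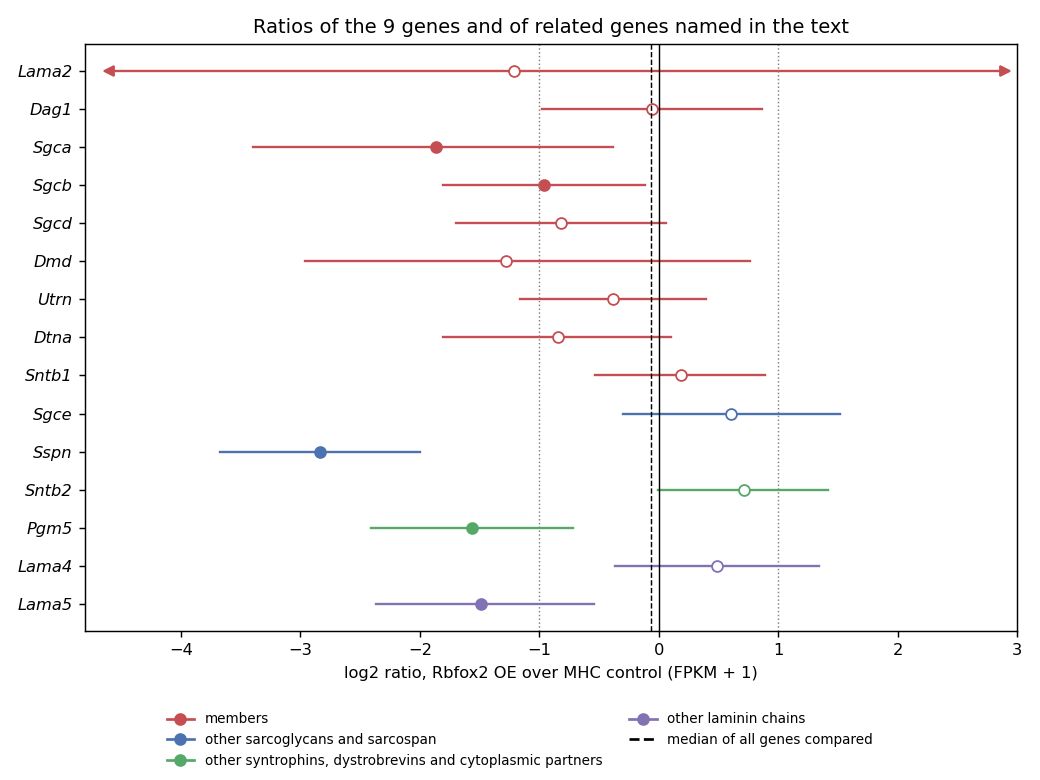
Log2 ratio of Rbfox2 OE over control for the 9 genes (red) and for Sgce and Sspn (blue), Sntb2 and Pgm5 (green), and Lama4 and Lama5 (purple). Lines run between the most distant pairings of the authors' bounds, arrows mark lines that leave the axis, filled points have separate bounds, the dashed line is the median of all genes compared (-0.06), and dotted lines mark 2-fold. Sspn lies farthest to the left at -2.84, and the lines of Sgca and Sgcb do not reach 0.

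The order of the 9 genes by level was the same in both groups: Dag1, Sgca, Sgcb, Dtna, Sgcd, Lama2, Dmd, Utrn and Sntb1, from high to low. Of the 8 pairs of neighbours in that order, 6 had overlapping bounds within the control. The exceptions there were the step from Sgca down to Sgcb and the step from Utrn down to Sntb1. In Rbfox2 OE 6 of the 8 pairs also overlapped. The steps with separate bounds there were from Dag1 down to Sgca and from Utrn down to Sntb1. In the control 7 of the 9 genes were in the top 25% of genes compared by level, and in Rbfox2 OE 3 were.

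**Figure D3:**
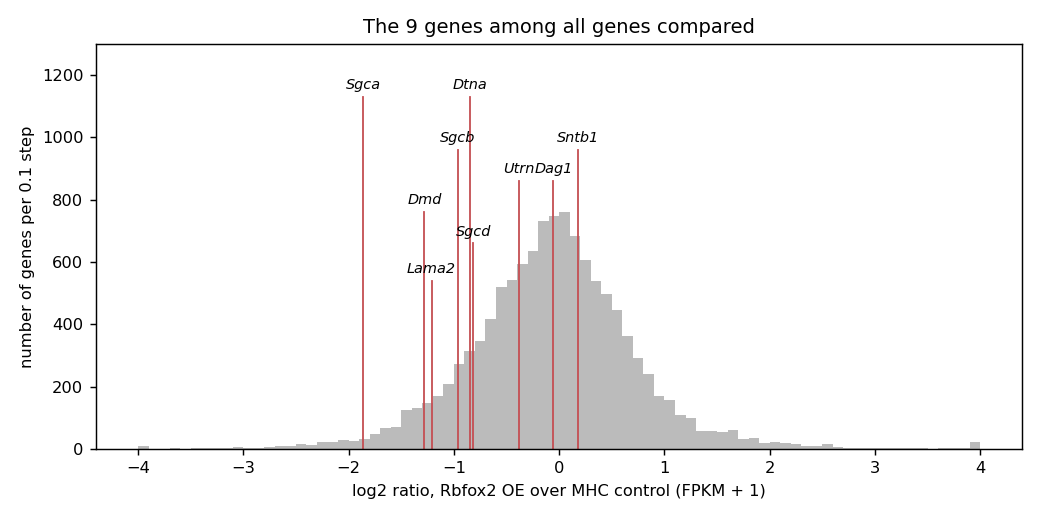
Number of genes per step of 0.1 in the log2 ratio of Rbfox2 OE over control, for the 11697 genes compared, with values beyond 4 in size drawn at 4. Red lines mark the 9 genes, and their heights only separate the names. Sgca lies at -1.86 in the left tail and Dag1 at -0.06 near the centre.

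Outside the complex, genes of the matrix that laminin and dystroglycan join lay on the other side of 0 from most of the 9 genes. Of 10 basement membrane and collagen VI genes, 9 were higher and 1 lower, with a median log2 ratio of 0.66. Bgn, biglycan, a small proteoglycan that binds dystroglycan and sarcoglycans, was the 1 with separate bounds. Bgn stood at 47.3 FPKM in control cells (31.2 to 63.4) and 163 FPKM in Rbfox2 OE cells (108 to 217), a log2 ratio of 1.76. Of 7 genes of membrane repair and caveolae, 3 were lower and 4 higher. Murc, the muscle caveolae protein cavin-4, stood at 92.0 FPKM (65.3 to 119) against 16.3 FPKM (11.0 to 21.5). Its log2 ratio of -2.43 came with separate bounds. Myof, the repair protein myoferlin, was higher with separate bounds, at 0.812 FPKM (0.507 to 1.12) against 2.04 FPKM (1.36 to 2.72).

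Markers of other cell types also differed between the groups. All 12 fibroblast markers were higher in Rbfox2 OE, with a summed level of 265 FPKM in control cells and 638 FPKM in Rbfox2 OE cells. Dcn stood at 147 against 301 FPKM and Col3a1 at 16.2 against 74.2 FPKM. All 12 endothelial markers were higher, summing to 591 against 923 FPKM, with Fabp4 at 291 against 388 FPKM and Cdh5 at 47.5 against 88.0 FPKM. All 12 macrophage and leukocyte markers were higher, summing to 131 against 446 FPKM, with Lyz2 at 41.3 against 170 FPKM and C1qa at 28.3 against 71.7 FPKM. Of 10 smooth muscle and pericyte markers, 9 were higher and 1 lower, with sums of 208 and 349 FPKM, Rgs5 at 71.9 against 127 FPKM and Acta2 at 43.7 against 140 FPKM. The bounds were separate for 9 of the 12 fibroblast markers and for 11 of the 12 macrophage and leukocyte markers. They were separate for only 4 of the 12 endothelial markers and overlapped for 8, Fabp4 and Cdh5 among them. Of the smooth muscle and pericyte markers, 3 were higher and 1 lower with separate bounds, and 6 overlapped. None of the markers in these 4 lists was listed at 0 in either group.

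The 7 atrial markers compared were all higher, 5 with separate and 2 with overlapping bounds. They summed to 281 FPKM in control cells and 3207 FPKM in Rbfox2 OE cells. Nppa, at 118 against 2178 FPKM, made up most of the latter sum, and Myl4 stood at 51.0 against 467 FPKM. Of 6 Schwann cell and glial markers 1 reached a mean of 1 FPKM, Mbp, at 0.687 against 1.72 FPKM. Utrn, Lama2, Sgce and Lama4 are among the genes here that are also expressed outside cardiomyocytes. The part of other cells in the value of any gene here, Dag1 and the matrix genes included, was not tested.

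Cardiomyocyte markers, which check the labelled cell type, were abundant in both groups, led by Myl2 at 24688 FPKM in control cells and 18007 FPKM in Rbfox2 OE cells and by Tnnt2 at 10609 and 6917 FPKM. Myh6 and Mb had the status HIDATA, given where a locus holds too many fragments to estimate, and are listed at 0 in both groups. Of the 13 other cardiomyocyte markers, 12 were lower and 1 higher, with a median log2 ratio of -0.87, close to the -0.85 of the 9 genes. The log2 ratios of these markers ran from -2.42 for Pln to 0.60 for Ttn, so the median does not stand for each marker. Their part in the values of the 9 genes was not tested. Rbfox2 OE was also rescaled by a factor of 1.82 to set the median cardiomyocyte marker at 0, a scaling chosen after the values were seen. The median of the 9 genes was then -0.01, which follows by construction from the closeness of the medians before rescaling. On that scale 1 of the 9 genes, Sgca, was at least 2-fold lower, and 0 had separate bounds. The log2 ratios were then -1.01 for Sgca, -0.12 for Sgcb, 0.01 for Sgcd, -0.48 for Dmd, 0.40 for Utrn and 0.81 for Dag1.

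**Figure D4:**
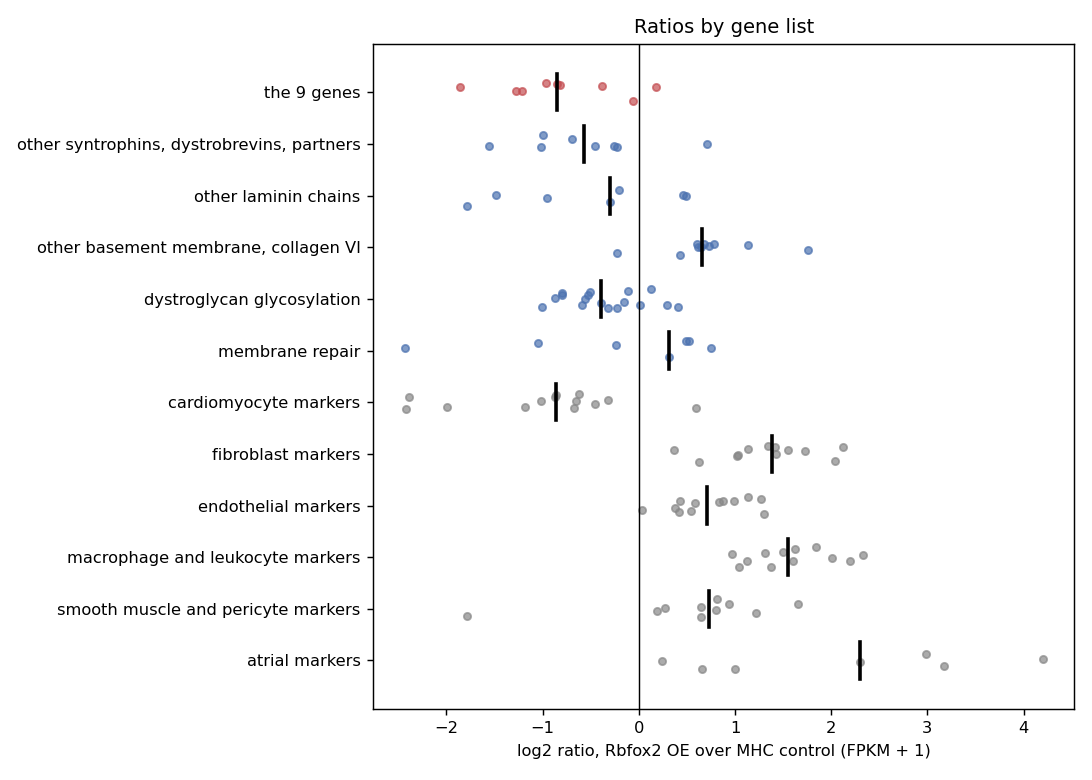
Log2 ratio of Rbfox2 OE over control for each gene with a mean of at least 1 FPKM and an estimate in both groups, by list (lists with at least 5 such genes); vertical bars are list medians. The 9 genes (red, median -0.85) and the cardiomyocyte markers (median -0.87) lie mostly left of 0, and the fibroblast markers (median 1.38) lie right of it.

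Several of the 9 genes have very long loci, and the ratio varied with locus length over all genes. The median log2 ratio was 0.05 for the 2176 genes with loci under 10 kb, -0.03 for 10 to 30 kb, -0.08 for 30 to 100 kb, -0.17 for 100 to 300 kb and -0.41 for the 465 genes with loci of 300 kb or more. Dmd, Lama2, Sgcd and Utrn belong to the longest class, whose quartiles ran from -0.92 to 0.18. Utrn at -0.39 and Sgcd at -0.82 lay inside that range, and Dmd at -1.28 and Lama2 at -1.21 below it. With gene spans from the annotation in place of the loci of the table, which merge overlapping genes, the longest class held 243 genes with a median of -0.71 and quartiles from -1.25 to 0.01. Dmd then lay just below that range and Lama2 inside it.

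The pair with separate bounds has short loci. Sgca and Sgcb fall in the class of 10 to 30 kb, with quartiles from -0.45 to 0.39, and both lay below these, at -1.86 and -0.96. Dag1, in the class of 30 to 100 kb, lay close to its median. Dtna at -0.85 lay below the lower quartile of the class of 100 to 300 kb, whose quartiles are -0.73 and 0.30, and Sntb1 at 0.18 between them. The part of locus length in these ratios was not tested.

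**Figure D5:**
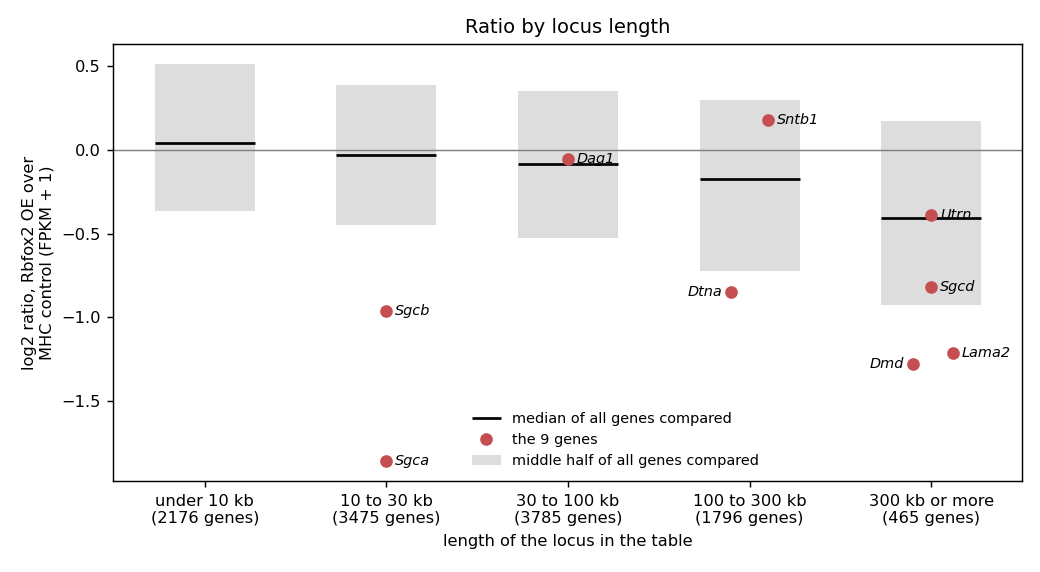
Log2 ratio of Rbfox2 OE over control by length of the locus in the table. Grey boxes span the quartiles of all genes compared and black lines their median, which goes from 0.05 in the shortest class to -0.41 in the longest; red points are the 9 genes, of which 4 are in the longest class.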

How the data were processed

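Polyadenylated RNA from cardiomyocytes was sequenced in 4 libraries, grouped by genotype and title labels into MHC control (2) and Rbfox2 OE (2). The values are FPKM that the authors estimated with Cuffdiff, per the file headers, version 2.2.1 per the submitters' processing notes, which also name STAR 2.4.2a and the builds GRCm38 and mm10. The deposited table holds 1 value per group with 2 bounds and a status. The annotation, the normalization mode, the level of the bounds and the use of strand are not given in the sources used here. The number of unused per-sample columns was 0, and the depth is unknown.

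Values of 110 gene names with several rows were added up. Log2 ratios used a pseudocount of 1 FPKM, genes whose mean reached 1 FPKM were compared (2 of them lack an estimate in a group and enter at 0), and genes were counted at 2-fold on that scale or where the bounds did not overlap, with pandas 2.3.3 and numpy 2.4.6 under Python 3.11.15. Without values per library no p-value was computed. The calculations were tested on simulated data. Coordinates and transcripts are from GENCODE M21 on GRCm38, in which 99.3% of gene identifiers were found. Promoter sequences are from RefSeq on GRCm38.p6; sequences of the proteins were not used here.

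The 9 genes and all lists were chosen with earlier results of these data known. Named beside the 9 genes were list members with separate bounds (at most 6 per list), Sspn, Nos1, the 2 most abundant markers of each cell type, markers without an estimate, and Rbfox2. Sgce, Sgcz, Lama4 and Sntb2 were added after their values were seen. Some genes that this rule names are not reported here. With 2 values per gene, no genes were named for likeness of pattern. Alternatives covered the pseudocount, the filter, the scaling, the status, the fold threshold and the width of the bounds.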

Additional observations from a re-analysis of the deposited data

How the results depend on the processing

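No paired analysis was possible because single libraries have no values in the table, and therefore no library could be left out in turn. The spread between libraries and the depth are unknown, which limits every value here. The log2 ratios of the 9 genes stayed within the range of their bounds under the pseudocounts and scalings, except that of Utrn. With the median cardiomyocyte marker at 0, Utrn stood at 0.40 and the median of the 9 was -0.015. On that scale Sgcb, at -0.12, stood at the edge of its range. Most of the ranges are wide beside the changes made by these settings, so staying inside them says little about stability.

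The number of the 9 genes with separate bounds, 2, was 1 after rescaling without mitochondrial and top genes, 0 with bounds widened 1.5 times and 0 with the median cardiomyocyte marker at 0. The number at least 2-fold lower, 3, was 2 with a pseudocount of 5, where Lama2 stood at -0.98, 6 at a 1.5-fold threshold, 0 at a 4-fold threshold and 1 on the cardiomyocyte scale. Of all genes compared, 1091 had separate bounds lower and 780 higher, against 823 and 1020 on the rescaling named first, which turns the split, 345 and 297 with widened bounds and 226 and 3180 on the cardiomyocyte scale; 446 were higher at a mean of at least 5 FPKM. At 2-fold, 1172 were lower and 815 higher, against 913 and 1060 on that rescaling, which turns this split too, 559 and 304 with a pseudocount of 5, 2582 and 1938 at 1.5-fold, 154 and 136 at 4-fold, and 270 and 3753 on the cardiomyocyte scale; 492 were higher at a mean of at least 5 FPKM. The median of all genes changed sign on rescaling (0.068) and without a filter (0.012). The basement membrane median was 0.51 with a pseudocount of 5 and 0.81 on rescaling. These changes follow from the construction of each setting.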
